A study of Mus musculus with 3 samples.

Results

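The genes described here encode the protein parts of the spliceosome and the proteins that coat nascent transcripts, measured in mouse four-cell embryos grown from oocytes exposed to high hydrostatic pressure (HP) and from control oocytes. Members were taken by gene name on the array: the Sf3a and Sf3b, Snrp, Lsm, Prpf, SR protein (Sfrs or Srsf), hnRNP, U2af and Gemin names, Sip1 (now Gemin2) and BC023488, the array's name for Gemin8. They number 93 genes with 181 probes, of 27671 gene names and 41174 probes on the array, and 75 of the 93 (107 probes) were bright enough to be tested. HP oocytes received 20 MPa for 60 min at 37 °C, while control oocytes were kept alike without pressure. Fertilisation was by sperm injection (ICSI) according to the sample labels, or in vitro according to the series title, and embryos were cultured to the four-cell stage. The 3 HP pools held 44, 30 and 37 embryos, and the 3 control pools 36, 33 and 24. Each of 3 two-colour Agilent arrays carried the HP pool (Cy5) and the control pool (Cy3) of 1 replicate number. The labels name no mouse strain, and give no genotype or animal age.

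Splicing removes introns through small nuclear ribonucleoprotein particles (snRNPs), each an RNA bound by proteins. The U1 particle marks the start of the intron, U2 with its SF3a and SF3b subunits and the U2AF factor marks the branch point and the end of the intron, and the U4/U6.U5 tri-snRNP brings in the RNAs of the catalytic core. U1, U2, U4 and U5 RNAs sit in a ring of Sm proteins that the SMN complex, with its Gemin subunits, loads in the cytoplasm, and U6 sits in a ring of the related LSm proteins. SR proteins mostly favour the use of an exon and hnRNP proteins often oppose it. An oocyte stores RNA made before fertilisation, and the four-cell mouse embryo holds what remains of that store together with RNA made from its own genome.

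Probe sequences are shown for 5 genes, Gemin8 as the highest member and 4 that have several tested probes, so that the stretch of transcript each one measured can be seen. The array carries probes of 60 bases, given here as its design lists them, with mm7 positions. For some the first 30 bases are printed. The 2 shown whole have an open reading frame from end to end, but so do several of those shown in part, so this does not set them apart. No mm7 gene annotation was used, so exon or untranslated region is not stated.
Gemin8, chrX:160964140-160964199, plus strand, first 30 bases: ctttaaaccatccagaatgtcataaaagcc
Hnrnpab, brightest probe, chr11:51557657-51557716, minus strand, first 30 bases: aaggtattttacacgtgtcctgattttgcc
Hnrnpab, probe 512 bases upstream, chr11:51558169-51558228, minus strand, whole: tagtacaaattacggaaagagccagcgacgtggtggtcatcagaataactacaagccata
Hnrnpab, probe 774 bases downstream, chr11:51556883-51556942, minus strand, first 30 bases: gggatctgagctttgtataacaaccacttt
Hnrnpa2b1, brightest probe, chr6:51426048-51426108, minus strand, first 30 bases: gacataacgtttttccttcccaattttaag
Hnrnpa2b1, probe 1455 bases downstream, chr6:51424593-51424652, minus strand, first 30 bases: gtcaaccacagagtcttcaagaaataagaa
Hnrnpll, brightest probe, chr17:78325665-78325724, minus strand, first 30 bases: caggaactacagacttagctgacgtcaatc
Hnrnpll, dimmer probe, chr17:78329907-78331049 (a span longer than the probe), minus strand, first 30 bases: tgtttgtgtgtctaaacagcactcagttgt
Gemin2, brightest probe, chr12:56963257-56963316, plus strand, first 30 bases: tggaagttttcttaagttgcatgcattgaa
Gemin2, dimmer probe, chr12:56960100-56960159, plus strand, whole: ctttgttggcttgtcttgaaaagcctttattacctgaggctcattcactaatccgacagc

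The scanner called 17.5% to 19.9% of spots well above background for HP pools and 18.5% to 23.2% for control pools, and none saturated. With 3 arrays the precision is limited, and every p-value given reflects only how far these pools spread. HP was Cy5 on every array, so the effects of dye and of pressure cannot be told apart. Of 11 embryo and oocyte markers 7 were above background in HP pools and 6 in control pools (Pou5f1, Nlrp5, Obox5 and Ooep were not in either), and their summed signal was 19370 to 34660 in HP pools and 12950 to 16210 in control pools, a difference whose part in the results was not tested. Markers of granulosa and cumulus cells stood above background for 0 of 10 genes in HP pools and 1 in control pools (Kitl), with sums of 779 to 793 in HP pools and 793 to 810 in control pools. Of 6 sperm markers only Prm1 did, in both groups, with sums of 481 to 501 in HP pools and 490 to 508 in control pools. The sums include probes below background, which were most of the granulosa, cumulus and sperm markers. For those markers they do not compare levels between the groups. The HP pools of replicates 2 and 3 lay closer to each other over the tested genes (SD of the log2 difference 0.231) than any other pair of HP pools (0.463 and 0.548) or of control pools (0.465 to 0.523), and the labels do not say whether these pools share animals or a day. In bulk samples, fewer cells of a type and less RNA per cell cannot be told apart.

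The comparison asks which splicing transcripts differ in level between HP and control embryos. All ratios are log2 of HP over control, as mean ± moderated SE over n = 3 arrays. More members lay below 0 than above, but by little: the median over the 75 tested members was −0.12, against −0.01 over all 7247 tested genes. Of the members 47 (62.7%) had a mean below 0, against 51.7% of all genes, and the means ran from −1.18 for Hnrnpul1 to 1.28 for Gemin8. No member and no other gene passed the limma test with Benjamini-Hochberg adjustment (0 of 7247 genes, 0.0%, the lowest adjusted p being 0.174), while 1342 genes (18.5%) had an unadjusted p under 0.05. At that unadjusted level 16 members (21.3%) were lower in HP, against a background of 11.3% of all genes, and 5 members (6.67%) were higher, against 7.26%. When arrays were centred on their median instead of by loess, the split was 47 lower (62.7% of members) and 1 higher, where 35.1% of all genes were lower and the median of all genes was itself at −0.39.

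**Figure D1:**
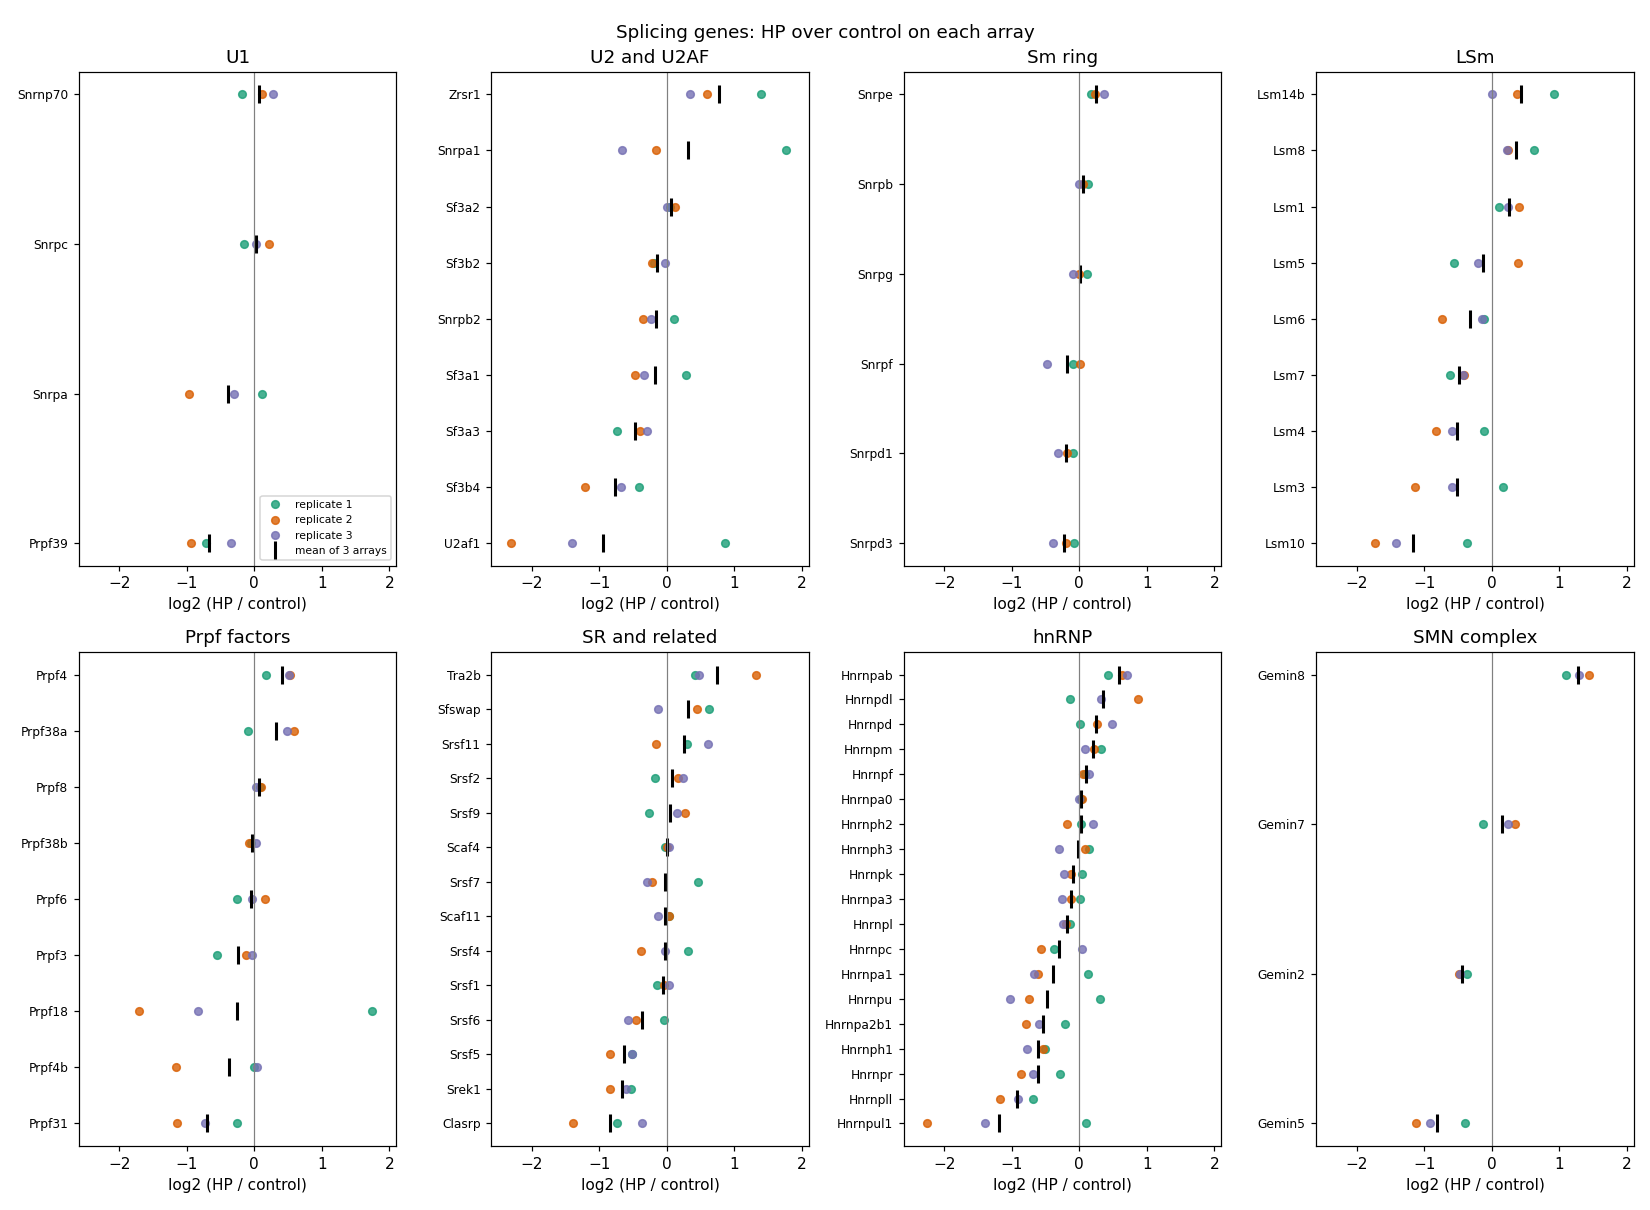
Log2 ratio of HP over control (x axis) of the tested splicing genes, but for 1 in the U1 panel, on each of 3 arrays (points, by replicate) with the mean (bars), 1 panel a particle or family and genes ordered by mean. Most means lie within 0.5 of 0, Gemin8 stands at 1.28 and Lsm10 at −1.17, and genes such as Prpf18 and U2af1 have replicate 1 on the other side of 0 from replicates 2 and 3; with median centring all 8 family medians are below 0 too.

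The 16 lower members depended on single arrays and on the source of the ratio. There were 23 (30.7%) without replicate 1, 8 (10.7%) without replicate 2 and 5 (6.67%) without replicate 3, against 14.0%, 5.89% and 6.14% of all genes. Counting replicates 2 and 3 as 1 replicate left 7 lower members (9.33%), against 6.78% of all genes. The scanner software's own log ratios gave 7 lower members (9.33%), against 10.1% of all genes. These shares differ with brightness over the whole array, so members were also read beside genes of like mean log2 intensity. Among genes between 7 and 10, 9 of 30 members (30.0%) were lower at unadjusted p under 0.05, against 18.7% of all genes in that range, and 3.33% of members were higher, against 8.91%. At 10 or more, 17.4% of 23 members were lower, against 16.0% of all genes, and 8.70% were higher, against 21.9%. Under 7, 13.6% of 22 members were lower, against 3.76%, and 9.09% were higher, against 2.90%. The lower members under 7 include Prpf39 and Clasrp, which were well above background in 0 HP pools and passed the filter through control pools alone. Srek1, with 1 such HP pool, also passed through control pools alone. These 3 are among the 16 lower members and among those without overlap below, so these counts lean on the filter. The medians of members and of all genes were 0.01 and 0.08 at 10 or more, −0.25 and −0.07 between 7 and 10, and −0.03 and 0.002 under 7.

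A member was lower on all 3 arrays in 24 cases (32.0%, against 25.0% of all genes), higher on all 3 in 13 cases (17.3%, against 23.2%), and of mixed sign in 38. The HP and control signals of the 3 pools did not overlap in 17 of 75 members lower in HP, against 958 of 7247 genes (13.2%). They did not overlap in 9 of 75 members higher in HP, against 964 genes (13.3%). No member was 2-fold lower on every array, which held for 0.221% of all genes, and Gemin8 alone was 2-fold higher on every array, which held for 0.152%. Signals below are log2 values after loess and quantile scaling of the average intensity, replicates 1, 2 and 3 in order, and are compared only within a probe.

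Of the U1 proteins, 5 of 6 genes were tested, with 3 means below 0 and 1 gene lower at unadjusted p under 0.05. Snrnp70, which binds the first stem-loop of U1 RNA, had a mean of 0.07 ± 0.14, and Snrpc, which steadies the pairing with the start of the intron, one of 0.03 ± 0.13. Median centring turned both below 0, to −0.90 and −1.07. Snrpa, the U1 A protein, was at −0.38 ± 0.24 and its dimmer probe, well above background in 1 HP pool and 2 control pools, at 0.03 ± 0.10. Prpf39, a U1-associated factor, had the lowest unadjusted p in the family. Its signal was 6.21, 6.36 and 6.67 in HP pools and 6.92, 7.29 and 7.03 in control pools. Each HP pool lay below every control pool and was not well above background. Only a bound can therefore be given, from the mean of the control pools over the mean of the higher, on each array, of the HP probe's own signal and the lowest signal called well above background. For Prpf39, and for Sf3b2 and Clasrp below, this bound equalled the fold of the mean ratio, so the SE of that ratio applies to it. By this bound Prpf39 was at least 1.59-fold lower in HP (log2 ratio −0.67 ± 0.16, adjusted p = 0.193). The other settings gave ratios from −3.52 to −0.53, so the size is uncertain.

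The U2 group, with SF3a, SF3b and U2AF, had 9 of 15 genes tested and a median of −0.15, with 2 genes lower and 1 higher at unadjusted p under 0.05. Sf3b4 encodes an SF3b subunit that contacts the transcript near the branch point. Its signal was 10.83, 10.01 and 10.15 in HP pools and 11.24, 11.22 and 10.83 in control pools. The highest HP pool and the lowest control pool both round to 10.83, without overlap before rounding. The gene was 1.70-fold lower in HP (−0.77 ± 0.19, adjusted p = 0.196). Sf3a3, a zinc finger subunit of SF3a, had signals of 9.99, 10.17 and 10.14 in HP pools and 10.73, 10.56 and 10.43 in control pools. All HP pools were below all control pools, and the ratio was −0.47 ± 0.14 (adjusted p = 0.229).

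Zrsr1, an imprinted relative of U2af1, ran the other way. Its signal was 7.62, 7.04 and 6.87 in HP pools and 6.22, 6.46 and 6.53 in control pools, with no overlap and a ratio of 0.78 ± 0.25 (adjusted p = 0.243). U2af1 itself, the subunit that reads the AG at the end of the intron, had the lowest mean in this group, −0.95 ± 0.67, and the widest spread: its ratio was 0.87 on replicate 1, −2.31 on replicate 2 and −1.41 on replicate 3. Of its HP pools 1 of 3 was well above background, against 3 of 3 control pools, so the sizes of these ratios are uncertain. Sf3b2, another SF3b subunit, was not well above background in any HP pool. By the same bound it was at least 1.11-fold lower in HP (−0.15 ± 0.11, adjusted p = 0.488), with a ratio of −0.02 on replicate 3. Of the SF3b subunits 3 of 5 were too dim to test, Sf3b1 among them.

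Sm ring genes had the narrowest spread of means among the families, from −0.22 to 0.25 over 6 of 8 genes, a median of −0.09 and no gene at unadjusted p under 0.05. Snrpe was highest: its signal was 9.73, 9.37 and 9.35 in HP pools and 9.56, 9.13 and 8.99 in control pools. The groups overlapped, and the ratio was 0.25 ± 0.11 (adjusted p = 0.312), or −0.59 with median centring. Snrpd3 was lowest at −0.22 ± 0.12. Snrpb, well above background in 3 HP pools and 1 control pool, was at 0.06 ± 0.11. Snrpd1 gave −0.19 ± 0.11 at its brightest probe and 0.36 ± 0.11 at the other. That other probe was well above background in 3 HP pools and 1 control pool, so it passed the filter through HP pools alone. Snrpf gave −0.19 ± 0.15 and 0.03 ± 0.13.

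LSm genes had the lowest median of the 8 families with loess, −0.33 over 9 of 12 genes (not so with median centring, scaling between arrays or array weights), with 3 lower and 0 higher at unadjusted p under 0.05. Lsm7 and Lsm4 belong both to the nuclear ring on U6 RNA and to the cytoplasmic ring that promotes mRNA decay. Lsm7 had signals of 7.63, 7.41 and 7.43 in HP pools and 8.25, 7.82 and 7.86 in control pools. These did not overlap, and the ratio was −0.48 ± 0.11 (adjusted p = 0.190). Lsm4 had 7.71, 7.05 and 7.21 in HP pools and 7.83, 7.87 and 7.79 in control pools, again with every HP pool lower (−0.51 ± 0.18, adjusted p = 0.264). All 5 tested genes shared by both rings (Lsm3, Lsm4, Lsm5, Lsm6 and Lsm7) had means below 0, from −0.52 to −0.13. So did 51.7% of all genes, and 55.8% of those with a mean log2 intensity of 7 to 10, where these 5 lay. Of the 5 genes 3 were lower on all arrays, while Lsm3 was at 0.17 on replicate 1 and Lsm5 at 0.39 on replicate 2. Lsm1, which sets the cytoplasmic ring apart, was higher in HP on each array, at 0.11, 0.40 and 0.24 (0.25 ± 0.12, adjusted p = 0.335), with 2 HP pools and 1 control pool well above background.

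Lsm10 takes the place of an Sm protein in the U7 particle, which serves the cutting of histone mRNA. It had signals of 8.09, 7.17 and 7.51 in HP pools and 8.46, 8.90 and 8.92 in control pools. Every HP pool was below every control pool, the gap being smaller on replicate 1 (−0.37) than on replicates 2 and 3 (−1.73 and −1.42), and the mean of −1.17 ± 0.31 was 2.25-fold lower in HP (adjusted p = 0.203). Lsm8, which sets the nuclear ring apart, was at 0.36 ± 0.14, with signals of 7.52, 7.12 and 7.02 in HP pools and 6.90, 6.88 and 6.80 in control pools. Lsm14b, a translational regulator of RNA granules, was highest at 0.43 ± 0.21, with 0.10 ± 0.13 at its other probe. Median centring put Lsm8 at −0.05 and Lsm14b at −0.13.

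The Prpf factors of the tri-snRNP and of later steps had 9 of 10 genes tested and a median of −0.04. Prpf31 and Prpf4 encode U4/U6 proteins and lay on opposite sides of 0. Prpf31 had signals of 8.03, 7.75 and 7.64 in HP pools and 8.28, 8.90 and 8.37 in control pools. Its groups did not overlap and its ratio was −0.71 ± 0.21 (adjusted p = 0.229). Prpf4 had 10.16, 10.89 and 10.76 in HP pools and 9.99, 10.35 and 10.24 in control pools. Its groups overlapped, although HP was the higher pool on each array (0.41 ± 0.13, adjusted p = 0.244), and with median centring its value was −0.55. Prpf3, the third U4/U6 protein, was at −0.24 ± 0.15, and Prpf38a, needed to activate the assembled complex, at 0.32 ± 0.18, or −0.65 with median centring. The kinase Prpf4b gave −0.37 ± 0.29 at its brightest probe, well above background in 1 HP pool and 2 control pools. Its dimmer probes, each not well above background in 1 of the groups, were at 0.16 and −0.07.

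SR proteins and SR-related proteins had 14 of 16 genes tested and a median of −0.02, with 3 lower and 1 higher at unadjusted p under 0.05. Srsf5, a classical SR protein, had signals of 7.99, 8.14 and 8.08 in HP pools and 8.50, 8.99 and 8.60 in control pools. All HP pools lay below all control pools, and the ratio was −0.63 ± 0.13 (adjusted p = 0.176). Srek1, which modulates the activity of other SR proteins, had 7.04, 6.39 and 6.86 in HP pools, of which 1 was well above background, and 7.57, 7.23 and 7.47 in control pools. Its pools did not overlap either (−0.66 ± 0.12, adjusted p = 0.176), while its dimmer probe, also above background in 1 HP pool, gave −0.27 ± 0.14. Clasrp, an SR-related partner of the kinase Clk4, was not well above background in any HP pool. By the same bound Clasrp was at least 1.79-fold lower in HP (−0.84 ± 0.23, adjusted p = 0.218). The other settings gave ratios from −3.99 to −0.56, so here too the size is uncertain.

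Tra2b, an activator of exons that carry purine-rich enhancers, was the highest of this family. It had 7.29, 7.50 and 7.26 in HP pools and 6.88, 6.17 and 6.79 in control pools. Every HP pool exceeded every control pool, with the widest gap on replicate 2 (0.74 ± 0.23, adjusted p = 0.238), and its dimmer probe was at 0.16 ± 0.14. Srsf6 was at −0.36 ± 0.15. Sfswap, a regulator named after the fly gene suppressor of white apricot, was at 0.32 ± 0.19 with its other probes at −0.33 and 0.10, and at −0.32 with median centring. The 4 probes of Srsf2 all lay near 0, from −0.13 to 0.16.

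**Figure D2:**
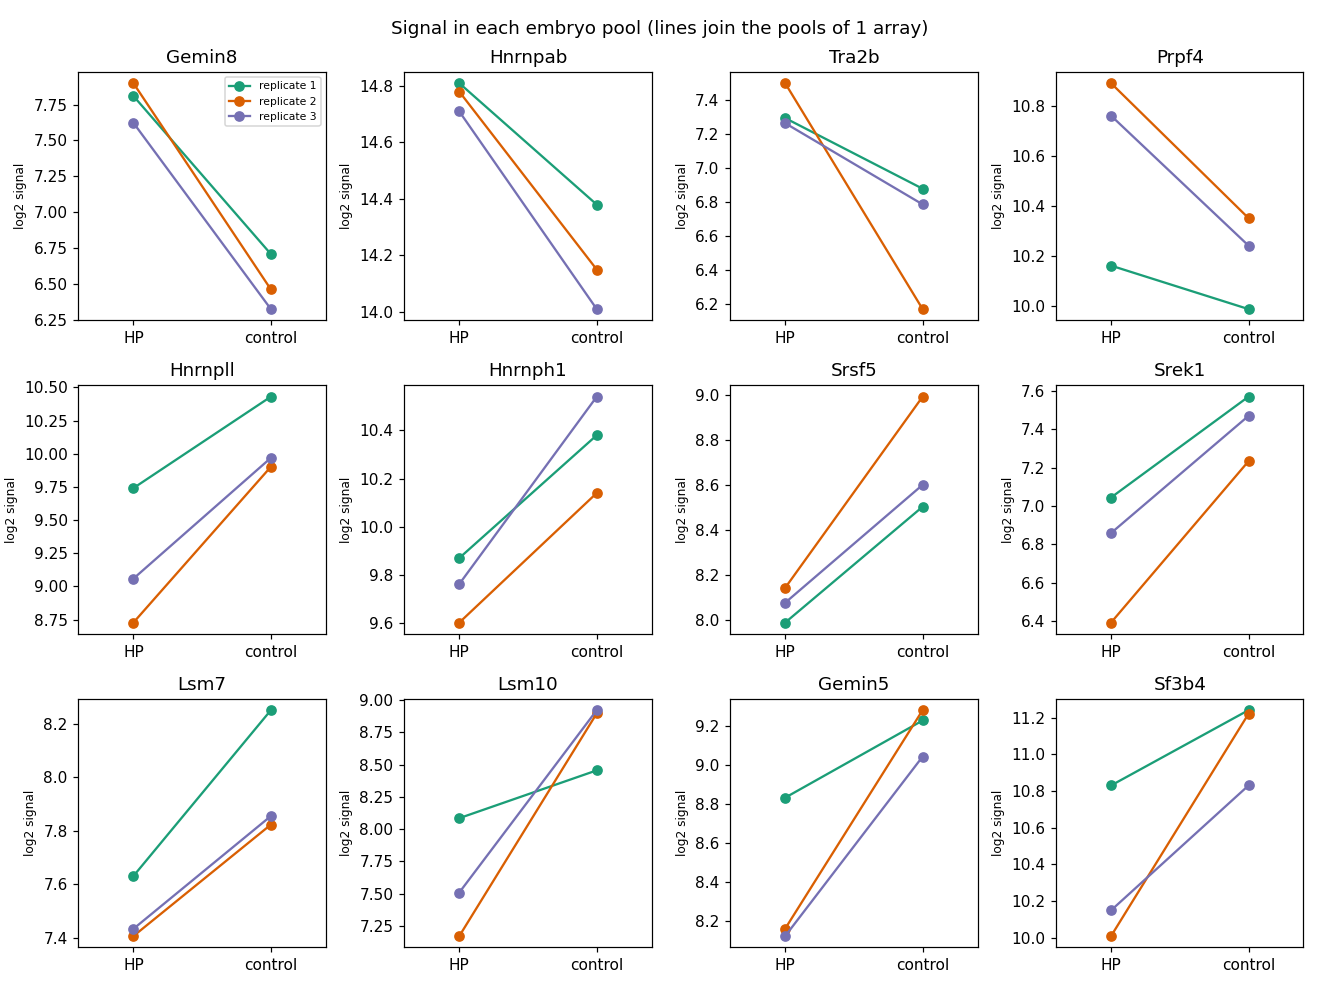
Log2 signal of 12 splicing genes (y axis, a scale of its own in each panel) in the HP pool and in the control pool of each array, joined by a line. In Gemin8, Hnrnpab and Tra2b each HP pool is above each control pool, and in Prpf4 the pools overlap. In the other 8 each HP pool is below each control pool, though in Sf3b4 the nearest pools both round to 10.83. Hnrnpab and Prpf4 turn lower in HP with median centring.

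The hnRNP genes had 19 of 20 tested and a median of −0.12, with 4 lower and 1 higher at unadjusted p under 0.05. Hnrnpll, known for regulating splicing of the Ptprc transcript in T cells, had signals of 9.74, 8.73 and 9.06 in HP pools and 10.43, 9.90 and 9.97 in control pools. No HP pool reached a control pool, and the gene was 1.90-fold lower in HP (−0.92 ± 0.14, adjusted p = 0.174), and its dimmer probe, well above background in 1 of 3 HP pools, was at −0.06 ± 0.17. Hnrnph1, which binds runs of G, had 9.87, 9.60 and 9.76 in HP pools and 10.38, 10.14 and 10.54 in control pools. Again the groups stood apart (−0.61 ± 0.12, adjusted p = 0.176). Hnrnpr, a relative of hnRNP Q, was at −0.61 ± 0.16 (adjusted p = 0.199).

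Hnrnpa2b1, a protein of the core hnRNP particle that also guides RNA transport, was lower at both probes. The brightest had 11.34, 10.91 and 11.12 in HP pools and 11.56, 11.70 and 11.72 in control pools (−0.53 ± 0.16, adjusted p = 0.227), and the probe downstream of it 8.81, 8.68 and 8.69 in HP pools and 9.78, 9.88 and 9.40 in control pools (−0.96 ± 0.14). Neither probe had an overlap between the groups. Hnrnpul1, related to hnRNP U, had the lowest mean of all members at −1.18 ± 0.50, but its ratios were 0.10, −2.25 and −1.40 and its groups overlapped (adjusted p = 0.305).

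Hnrnpab, which binds single-stranded nucleic acid, was the highest hnRNP gene. Its brightest probe had 14.81, 14.78 and 14.71 in HP pools and 14.38, 14.15 and 14.01 in control pools (0.59 ± 0.12, adjusted p = 0.176), and the HP pools were all above the control pools. Median centring turned it to −0.72, where tested genes of intensity 10 or more had a median of −0.96. The probe 512 bases upstream gave −0.27 ± 0.18 and the one 774 bases downstream 0.21 ± 0.18. Hnrnpk, which binds C-rich stretches, gave −0.10 ± 0.12 and 0.27 ± 0.18 at its probes.

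The SMN complex had 4 of 6 genes tested, and they differed most among themselves. Gemin8, which links other Gemin proteins to SMN, had 7.81, 7.90 and 7.62 in HP pools and 6.71, 6.46 and 6.33 in control pools. Every HP pool exceeded every control pool, by over 1 log2 unit on each array, and the gene was 2.43-fold higher in HP (1.28 ± 0.12, adjusted p = 0.174). Its probe was well above background in 3 HP pools and 2 control pools. A further Gemin8 probe that the array lists under a clone name was not well above background in any pool, so the value rests on the probe shown.

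Gemin5, the subunit that recognises the snRNAs, had 8.83, 8.16 and 8.12 in HP pools and 9.23, 9.28 and 9.04 in control pools. The groups did not overlap, and Gemin5 was 1.76-fold lower in HP (−0.81 ± 0.18, adjusted p = 0.190). Gemin2, which holds the incomplete Sm ring, had 6.47, 6.49 and 6.87 in HP pools and 6.83, 6.98 and 7.33 in control pools. HP was the lower pool on each array but the groups overlapped (−0.44 ± 0.11, adjusted p = 0.193), and the dimmer probe, well above background in 1 HP pool, gave −0.21 ± 0.13. Gemin7 was at 0.15 ± 0.14, or −0.25 with median centring.

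Several tested probes were available for 27 of the tested members, and in 8 of them (29.6%) a probe had the opposite sign to the brightest, against 467 of 1147 genes (40.7%) over the array. These were Hnrnpab, Hnrnpk, Prpf4b, Sfswap, Snrpa, Snrpd1, Snrpf and Srsf2, all given above. For Hnrnpa1 the probes lay on different chromosomes in the design, 15 and 9, so they may not report the same gene, and they gave −0.39 and −0.45. Hnrnpa3, close to Hnrnpa1 in sequence, gave −0.12 and −0.69.

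**Figure D3:**
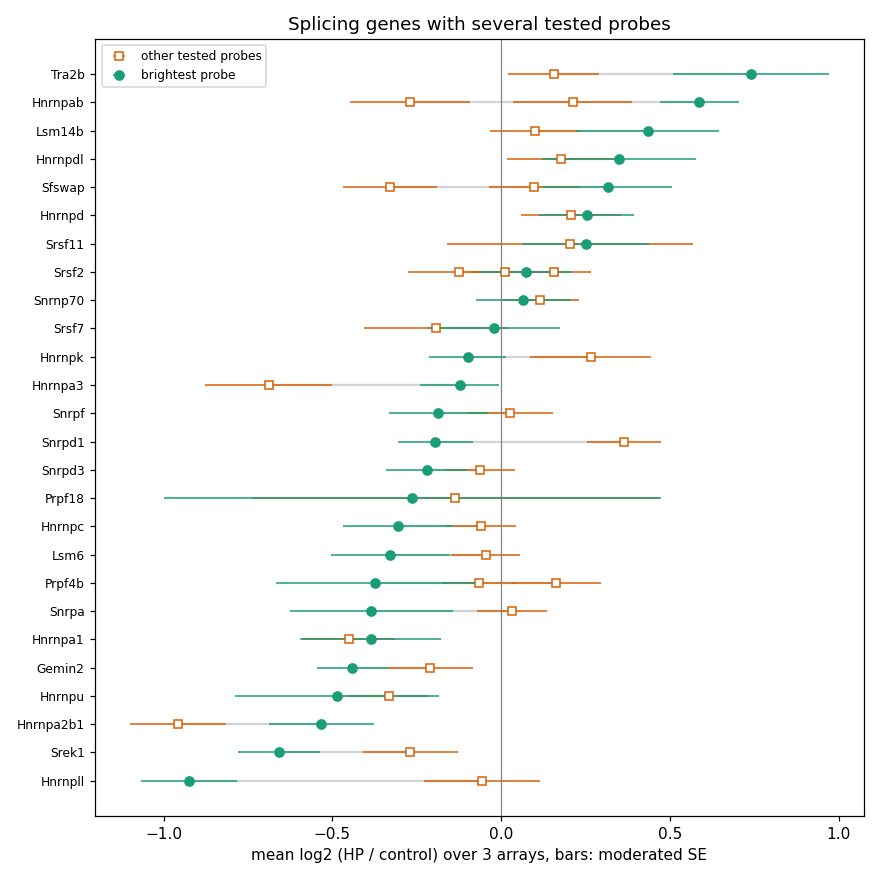
Mean log2 ratio of HP over control over 3 arrays (x axis) with its moderated SE for each tested probe of the splicing genes that have several (1 of the 27 is not drawn), the brightest as filled circles and the others as open squares. Brightest and dimmer probes lie apart in Hnrnpll (−0.92 and −0.06, the dimmer above background in 1 HP pool), Hnrnpab (0.59, 0.21 and −0.27) and Tra2b (0.74 and 0.16), and the brightest Hnrnpab probe is at −0.72 with median centring.

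Over the arrays, 39 of the 75 tested members were below 0 on replicate 1, 46 on replicate 2 and 48 on replicate 3, with medians of −0.03, −0.16 and −0.14. Of all 7247 tested genes 3785, 3704 and 3541 were below 0, with medians of −0.02, −0.01 and 0.004. Replicates 2 and 3 ordered the members alike, with a correlation across the 75 genes of 0.84 (0.65 over all tested genes), whereas replicate 1 had 0.19 with replicate 2 and 0.17 with replicate 3 (0.23 and 0.22 over all). Genes are not independent replicates, and pools on the arrays share their labelling. Prpf18, a factor of the second catalytic step, was at 1.75, −1.71 and −0.83, and its other probe at 1.44, −1.48 and −0.37. Snrpa1, the U2 A′ protein, was at 1.77, −0.16 and −0.67. Within the members the HP pools of replicates 2 and 3 were again closest, with an SD of the log2 difference of 0.187, against 0.409 and 0.499 for the other pairs of HP pools and 0.383 to 0.468 for pairs of control pools.

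**Figure D4:**
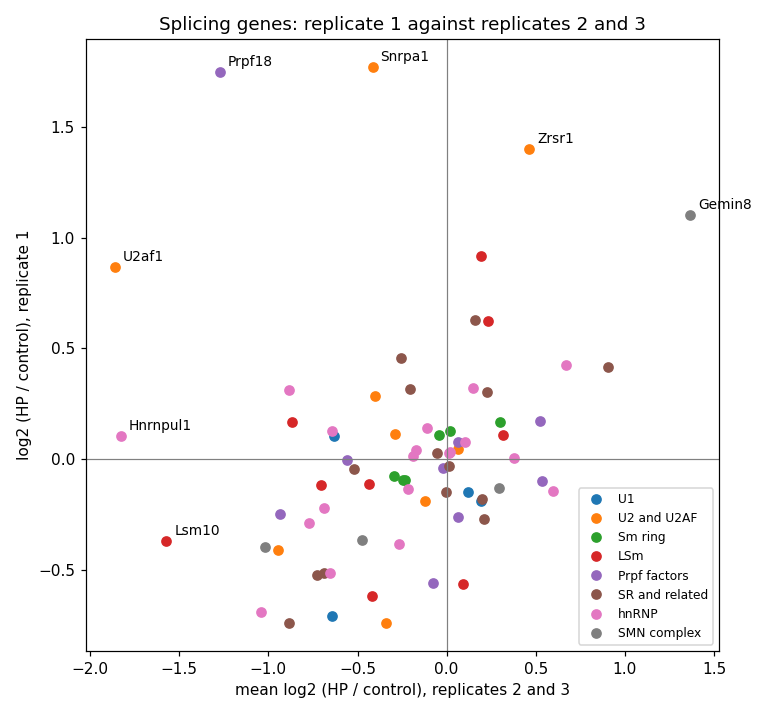
Log2 ratio of HP over control on replicate 1 (y axis) against the mean of replicates 2 and 3 (x axis) for the tested splicing genes (1 of the 75 is not drawn), coloured by particle or family. Gemin8 and Zrsr1 are above 0 on both axes and Lsm10 below 0 on both, while Prpf18, U2af1, Snrpa1 and Hnrnpul1 are above 0 on replicate 1 and below 0 on the others.

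Of the 18 members too dim to test, Prpf40b, Sf3b3, Sf3b5, Sugp2 and U2af2 had a probe well above background at least once. The others were Gemin4, Gemin6, Hnrnpul2, Lsm11, Lsm14a, Lsm2, Prpf19, Sf3b1, Snrpd2, Snrpn, Srsf3, U2af1l4 and Zrsr2, for which a difference was not detectable.

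Another 92 splicing genes that the name rule does not take were set beside the members, of which 69 were tested. Their median was −0.09, and 10 (14.5%) were lower and 4 (5.80%) higher at unadjusted p under 0.05, against 11.3% and 7.26% of all genes. Those lower with the smallest p were Sfpq, a paraspeckle protein, at −0.54 ± 0.11, Crnkl1, a scaffold of the catalytic spliceosome, at −0.89 ± 0.22, and Txnl4b, a relative of a U5 protein, at −0.50 ± 0.13. On the higher side were Strap, which joins the SMN complex, at 0.73 ± 0.15, Snu13, which binds U4 RNA, at 0.55 ± 0.16, and Magoh, of the exon junction complex, at 0.77 ± 0.24. Their adjusted p ran from 0.176 to 0.239, and median centring turned the last 3 below 0, to −0.14 for Strap, −0.52 for Snu13 and −0.34 for Magoh.

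Promoters were read from RefSeq (GRCm38.p6) as 250 bases before to 50 after the start, with 109 windows for 82 of the 93 members. CCGGAAGT, a site form of the ETS family of factors, was searched on both strands (ACTTCCGG in reverse). It occurred in 16 of these windows (14.7%), and in 5.15% of windows of all protein-coding genes. Among tested genes it was in 18.2% of member windows and in 8.67% of all. TATAAA on either strand was in 6.42% of member windows and 12.6% of those of all protein-coding genes. Among tested genes TATAAA was in 4.55% of member windows and in 7.58% of all. The NRF1 motif was in 1.83% of member windows and 1.33% of those of all protein-coding genes, and the YY1 motif in 0.917% and 0.889%. Of the members at unadjusted p under 0.05 that had a window (13 lower and 5 higher), only Sf3a3 and Srsf5, both lower in HP, held CCGGAAGT. That is 2 of 22 windows of the lower members (9.09%), near the 8.67% of all tested genes and below the 18.2% of tested members. The windows of Sf3a3 and Srsf5 are printed with it in capitals, 91 bases before the start in Sf3a3, and 91 and 23 before it in Srsf5. A match of letters is a description and not a bound site.
Sf3a3, chr4:124714611-124714910, plus strand: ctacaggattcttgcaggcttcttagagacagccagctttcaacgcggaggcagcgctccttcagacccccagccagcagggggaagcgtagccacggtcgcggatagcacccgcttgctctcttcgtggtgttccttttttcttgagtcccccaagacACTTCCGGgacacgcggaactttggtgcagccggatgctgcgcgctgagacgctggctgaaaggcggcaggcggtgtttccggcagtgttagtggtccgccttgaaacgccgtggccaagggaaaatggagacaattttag
Srsf5, chr12:80945249-80945548, plus strand: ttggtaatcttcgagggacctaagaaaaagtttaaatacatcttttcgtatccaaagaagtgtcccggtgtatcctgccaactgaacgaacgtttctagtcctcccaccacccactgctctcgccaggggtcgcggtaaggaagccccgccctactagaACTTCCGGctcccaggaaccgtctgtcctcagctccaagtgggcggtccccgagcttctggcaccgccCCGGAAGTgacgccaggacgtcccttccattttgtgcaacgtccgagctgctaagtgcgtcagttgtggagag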

How the data were processed

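Per the labels, RNeasy Plus Micro columns gave the total RNA, of which 240 pg a pool went into a PicoAMP amplification kit. HP targets carried Cy5, control targets Cy3. The submitters' processing notes name Agilent Feature Extraction 9.5.1.1. The mean spot signal and its local background are deposited as scan intensity. The deposited log10 ratio is red (Cy5) over green (Cy3) from processed signals, background-subtracted and dye-normalized by that software, per the file headers, and the deposited series table differs from it by at most 5e-10. Here the mean signals were background-corrected (normexp, offset 50) and loess-normalized with control spots at weight 0 in limma 3.58.1 (R 4.3.3, Python 3.11.15). Outlier spots (208, 172 and 325) were left out and spots of a probe averaged. A probe was tested when 1 of its channels was well above background on 2 or more of the 3 arrays (8581 probes, 7247 genes), a gene being its brightest probe. The fit was an intercept on log2 of HP over control with empirical Bayes moderation (prior degrees of freedom 2.05), Benjamini-Hochberg adjustment over all genes and a threshold of 0.05. The fit and the adjustment, but not the steps before them, were tested on simulated log ratios with independent arrays.

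Symbols were updated through RefSeq (GRCm38.p6): 133 member probes by accession, 21 by symbol, 26 by synonym and 1 through the other probes of its gene. The members and lists were chosen with earlier results of these data known. The text names, in each family, the highest and lowest tested gene and up to 3 with the smallest p, every gene of 1 sign on all arrays at unadjusted p under 0.05, genes with probes of opposite sign, and up to 3 other splicing genes per direction. Lsm1, Lsm3, Lsm5, Lsm6, Prpf18, Snrpa1, Hnrnpa1 and Hnrnpa3 were named after their values were seen. One gene that the rule takes is counted but not reported here. HP and control pools of 1 number share an array, and the ratio within the array carries that pairing. Other settings concerned the ratio (from the scanner, or from the series table), the background (none subtracted, or an offset of 0), scaling (median centring, scale between arrays), a base composition trend, the filter on dim probes (none, or both channels), array weights, channels fitted separately without a replicate block, averaging of probes, and replicates (2 and 3 as 1, or each left out).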

Additional observations from a re-analysis of the deposited data

How the results depend on the processing

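Of the 49 named genes, 31 kept their direction under every alternative that gave them a value: all 16, or 15 for those that the filter on both channels left out (it kept 38 of the 49). Median centring reversed 15 of them and put 19 past the adjusted threshold: Gemin7 went to −0.25, Hnrnpab to −0.72, Lsm14b to −0.13, Lsm8 to −0.0455, Magoh to −0.34, Prpf38a to −0.65, Prpf4 to −0.55, Sfswap to −0.32, Snrnp70 to −0.90, Snrpb to −0.0276, Snrpc to −1.07, Snrpe to −0.59, Snu13 to −0.52, Srsf2 to −1.08 and Strap to −0.14. It gave 1031 genes past adjustment (1026 lower, 5 higher), of which 22 members lower and 1 higher, 47 members lower and 1 higher at unadjusted p under 0.05, a member median of −0.84 and 40 other splicing genes, with a median of −0.39 over all genes and of −0.96 over those of intensity 10 or more (members −1.12).

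The scanner log ratio and the series table turned Snrpc to −0.11 and Srsf2 to −0.14 and each gave 7 lower members. The mean over probes turned Hnrnpk to 0.0829 and Snrpd1 to 0.0847 and gave 3 higher members of 75, against 7.08% of all genes. Replicates 2 and 3 as 1 turned Snrpc to −0.0144 and gave 7 lower and 2 higher members of 75, against 6.78% and 5.16% of all genes, and 6 other splicing genes. Without a filter 10 of 93 members were higher (3.03% of all genes) and 19 lower (4.2%), with a median of −0.0314. With both channels filtered 3 of 55 were higher (9.22% of all genes) and 13 lower (13.8%). Array weights gave 8 of 75 higher (9.6% of all genes) and 20 lower (14.4%). With an offset of 0 there were 9 other splicing genes.

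Leaving out 1 replicate gave 5 to 23 lower members, 2 to 7 higher members, 4 to 16 other splicing genes, medians of −0.19 to −0.06 and 0 genes past adjustment. Over these fits Prpf4b ran from −0.58 to 0.019 (reversed without replicate 2), Snrpc from −0.0615 (without replicate 2) to 0.117, Snrnp70 from −0.0399 (without replicate 3) to 0.193, and Srsf2 from −0.00919 (without replicate 3) to 0.198. Separate channels with no replicate block gave 16 lower and 4 higher members, 0 past adjustment, and no call at the adjusted threshold changed. The cause of these reversals was not tested. By family, the median was above 0 only for Sm genes with the mean over probes (0.03) and without replicate 3 (0.01), and for Prpf genes without replicate 2 (0.02). Probes near background limit Prpf39, Clasrp and Sf3b2 to bounds, which equalled their mean ratios. U2af1, Srek1 and Prpf4b were above background in 1 HP pool, and Snrpb in 1 control pool.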
